A study of Homo sapiens with 6 samples.

Results

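The order of early, middle and late genes was followed in DU145 cells treated with HGF, on 3 of the 6 arrays of the series, 1 each after 2, 8 and 24 hours. DU145 is an established line of human prostate cancer cells with an epithelial shape, and hepatocyte growth factor (HGF) is a secreted protein that binds and activates c-MET, a tyrosine kinase receptor. HGF was given at 25 ng/ml. The other 3 arrays hold cells kept with vehicle for the same times, and all cells, treated or not, stood in medium with charcoal-stripped serum from the night before. Each condition is 1 culture of 1 cell line on 1 Affymetrix U133plus2.0 array, so that no value has a replicate error.

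When HGF binds, c-MET activates the RAS and ERK cascade, PI3 kinase and SRC, and epithelial cells lose their contacts and scatter. Growth factors are known to switch on genes in waves. Immediate early genes, many of them transcription factors such as the EGR, NR4A and AP-1 families, need no new protein for their transcription and are shut off again by their own products. Delayed and late genes, among them proteases, integrins and secreted factors, follow once those factors have been made.

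Each array was scaled to a mean intensity of 150, and values under 30 were raised to 30, a floor under which no order is read. Levels below are intensities of the brightest probe set of a gene on this scale. A gene ratio averages the log2 ratios of all probe sets of the gene, and it is a bound where a probe set lies at the floor on 1 side. Probe sets at the floor on both sides enter the average with a ratio of 0. A gene was called where at least 1 probe set differed at least 2-fold and the gene ratio reached at least 0.50 on the log2 scale in the same direction, a rule of size with no test. Of 19775 genes with a probe set of 1 gene symbol, 10791 were above the floor on at least 1 array and were compared. Early genes were called higher at 2 hours than at both later times, middle genes higher at 8 hours than at 2 and 24 hours, and late genes higher at 24 hours than at 2 and 8 hours. Genes low at 2, 8 or 24 hours were defined in the same way. Both ratios of a class share the array of that time.

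The 6 arrays had deposited means between 149.1 and 205.4, and 33.1% to 36.7% of their probe sets lay above the floor after scaling. The 3′ over 5′ ratio of the ACTB control probe sets was 1.13, 1.31 and 1.71 on the HGF arrays of 2, 8 and 24 hours, and 1.17, 1.36 and 1.63 on the vehicle arrays, so it was higher at later times with and without HGF. Of the epithelial markers 9 of 10 were above the floor, with KRT5 at it. Of the prostate luminal markers 2 of 8 were, KLK3 and STEAP2. KLK3 was above the floor only in its brightest probe set. That probe set had 39.5, 110.1 and 106.1 at 2, 8 and 24 hours of HGF and 43.1, 52.1 and 96.7 with vehicle. The other KLK3 probe sets were at 13.9 or less on all 6 arrays, so the gene counts as present by that probe set alone. All 8 leukocyte and all 8 endothelial markers with a named probe set were at the floor, and of 10 fibroblast markers COL1A1 and VIM were above it. The median log2 ratio of probe sets above the floor in both arrays was -0.10, -0.07 and -0.01 for 8 over 2, 24 over 2 and 24 over 8 hours with HGF, and 0.03, -0.17 and -0.19 with vehicle. Quantile normalization brought all 6 medians to between -0.04 and 0.02.

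With HGF the levels of more genes differed between 2 and 8 hours than between 2 and 24 hours. At 8 over 2 hours 399 genes were called higher (3.7% of the genes compared) and 912 lower (8.45%). In RNA of whole cultures, less RNA per cell and fewer cells with a transcript cannot be told apart. At 24 over 2 hours 162 were higher (1.5%) and 340 lower (3.15%), and at 24 over 8 hours 458 were higher (4.24%) and 239 lower (2.21%). Between vehicle arrays the same rule called 56 higher (0.519%) and 39 lower (0.361%) at 8 over 2 hours. It called 28 (0.259%) and 231 (2.14%) at 24 over 2 hours, and 49 (0.454%) and 594 (5.5%) at 24 over 8 hours. The balance of directions followed the scaling. With HGF 30.4% of the called genes were higher at 8 over 2 hours and 57.0% under quantile normalization (690 higher and 521 lower), and at 24 over 2 hours 32.3% were higher and 51.7% under quantile normalization (222 higher and 207 lower). At 24 over 8 hours 65.7% were higher with HGF and 56.1% under quantile normalization (334 higher and 261 lower). With vehicle 58.9% were higher at 8 over 2 hours and 39.1% under quantile normalization (34 higher and 53 lower). The excess of lower calls on the vehicle array of 24 hours was not kept under that scaling, where 74 were higher and 80 lower at 24 over 2 hours (48.1% higher, against 10.8% in the scaled arrays) and 218 higher and 222 lower at 24 over 8 hours (49.5% higher, against 7.6%).

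A total of 1830 genes were called in at least 1 pair of HGF arrays and 662 fell into at least 1 class. There were 176 early genes (1.63%), 67 middle genes (0.621%) and 35 late genes (0.324%). Genes low at 2 hours numbered 90 (0.834%), those low at 8 hours 269 (2.49%) and those low at 24 hours 43 (0.398%). In vehicle arrays the classes held 4 (0.0371%), 35 (0.324%) and 7 (0.0649%) genes highest at 2, 8 and 24 hours, and 4 (0.0371%), 10 (0.0927%) and 157 (1.45%) genes lowest at those times. Late genes numbered 35 under either scaling, 30 of them shared, whereas early genes numbered 92 under quantile normalization and middle genes 108. TFRC and NUDT3, with a smaller ratio of 0.50 on the log2 scale, were just inside the early class and SFTA3 at 1.00 and FAM13B at a bound of 0.97 just outside it, since their probe sets did not reach 2-fold over the floor or the other level in that ratio.

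Among the 12 leading early genes were NR4A3, NR4A2, CCN2, CCL20, HAS2 and ID2. NR4A3, an orphan nuclear receptor of the immediate early class, had a level of 382.9 at 2 hours, 31.9 at 8 hours and 26.8, under the floor, at 24 hours with HGF, against 72.2, 35.3 and 51.6 with vehicle. Its ratio was at most -2.18 at 8 over 2 hours and at most -2.21 at 24 over 2 hours. The related NR4A2 had 360.0, 97.3 and 121.1 with HGF and 114.1, 85.7 and 100.8 with vehicle. At 2 hours of HGF both receptors thus stood above all other arrays. NR4A1 had 525.8, 180.1 and 149.1 with HGF and 118.2, 53.5 and 87.0 with vehicle, and so stayed above every vehicle array at 24 hours.

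CCN2, a secreted matricellular protein and a target of SRF and YAP, had levels of 1463.8, 421.8 and 222.0 at 2, 8 and 24 hours of HGF, against 429.7, 376.6 and 295.5 with vehicle. Its ratios were -1.79 at 8 over 2 and -2.72 at 24 over 2 hours, and at 24 hours its level was below all vehicle arrays. CCL20, a chemokine that attracts cells bearing CCR6, had 236.8, 47.9 and 82.2 with HGF and 106.7, 79.0 and 102.6 with vehicle. HAS2, which makes hyaluronan, had 165.5, 54.4 and 116.9 with HGF and 65.4, 60.1 and 58.5 with vehicle, and so belonged both to the early genes and to those low at 8 hours. ID2, an inhibitor of basic helix-loop-helix factors, had 662.3, 268.3 and 181.5 with HGF against 526.8, 383.4 and 232.6 with vehicle. The vehicle ratio of ID2 at 24 over 2 hours was -1.06 and was called too.

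EGR1, a zinc finger factor and the best known immediate early gene, kept the time order at a higher level. It had 2835.6, 1412.1 and 1228.3 at 2, 8 and 24 hours of HGF, against 521.1, 245.6 and 320.0 with vehicle, so that each HGF array was above all vehicle arrays. The vehicle ratio at 8 over 2 hours was at most -0.78 and was called as well. The dimmer EGR3 had 85.8, 39.6 and 23.6 with HGF, while all 3 vehicle arrays were at 9.0 or less, under the floor. EGR4 had 116.3, 30.8 and 17.5 with HGF and 6.0 or less with vehicle. The EGR1 promoter is shown because EGR1 is the textbook case of control by SRF through CArG boxes. The stretch is chr5:138465360-138465419 of GRCh38.p14, plus strand, from the RefSeq promoter sequence, with CArG boxes in capitals, the first starting 105 and the second 83 bases before the start site.
EGR1: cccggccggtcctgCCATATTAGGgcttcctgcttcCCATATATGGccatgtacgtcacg
A CArG box lay in 1.3% of the 150 early genes' promoters in the table and in 1.0% of the 8913 promoters of all genes compared, a share close to that background.

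Of the list of immediate early transcription factors, 25 of 28 were above the floor. At 24 over 2 hours 13 were called lower (3.15% of all genes compared) and 0 higher (1.5%), with a median log2 ratio of -0.75 against -0.02 over all genes compared. At 8 over 2 hours 10 were lower (8.45% of all genes compared) and KLF2, at 0.65, was higher (3.7%), with a median of -0.45. In vehicle arrays 1 of the 25 was called at 24 over 2 hours and the median was -0.01. Of the 25, 18 were highest at 2 hours of HGF, 6 at 8 hours and 1 at 24 hours. Of all 10791 genes 4404, 4142 and 2245 were, in that order, with ties at the floor counted for the earlier time. The early rule was met by 9 (1.63% of all genes compared). Under quantile normalization the count at 24 over 2 hours was again 13 lower and 0 higher. Besides those above, ATF3 (351.7, 124.9 and 102.5 with HGF) and BHLHE40 (1339.7, 803.6 and 652.6 with HGF) were early, with vehicle at 169.8, 137.1 and 118.1 for ATF3 and at 466.8, 287.2 and 393.0 for BHLHE40. KLF10 was early as well, though its ratio of -1.04 at 8 over 2 hours was not called after quantile normalization. FOS, at 86.5, 44.0 and 45.0 with HGF and under the floor with vehicle, missed the rule with ratios of -0.98 and -0.94. MYC had 1055.8, 1047.4 and 754.6 with HGF and 608.1, 762.9 and 672.0 with vehicle and was in no class.

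Of the list of ERK feedback 21 members were above the floor. It holds regulators that shut off the ERK cascade, and also ETV4, which lies downstream of it. At 24 over 2 hours 3 members, ETV4 among them, were called higher (1.5% of all genes compared). The call was lower for 1 (3.15%, so that 1 of 21 is near the background), and the median was 0.01. Of the 21, 7 were highest at each of the 3 times, against 4404, 4142 and 2245 of all 10791 genes at 2, 8 and 24 hours. DUSP6, the phosphatase of ERK, had 384.8, 453.1 and 559.6 with HGF against 143.7, 113.7 and 145.4 with vehicle. SPRY4, an inhibitor of receptor tyrosine kinase signalling, had 148.0, 180.5 and 201.3 with HGF against 37.4, 61.0 and 64.7 with vehicle. Neither was called between times, and both were above every vehicle array on every HGF array. ETV4, an ETS factor downstream of ERK, was higher at later times, with 87.5, 182.1 and 232.6 for HGF and 107.6, 113.0 and 145.1 for vehicle. DUSP7, another ERK phosphatase, had 81.8, 269.7 and 199.3 with HGF against 71.3, 74.4 and 80.0 with vehicle. IER3 and PHLDA1, often grouped with the immediate early genes, had flat levels of 4003.4, 3902.7 and 3786.7 and of 3165.9, 3046.8 and 2984.8 at 2, 8 and 24 hours of HGF.

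**Figure D1:**
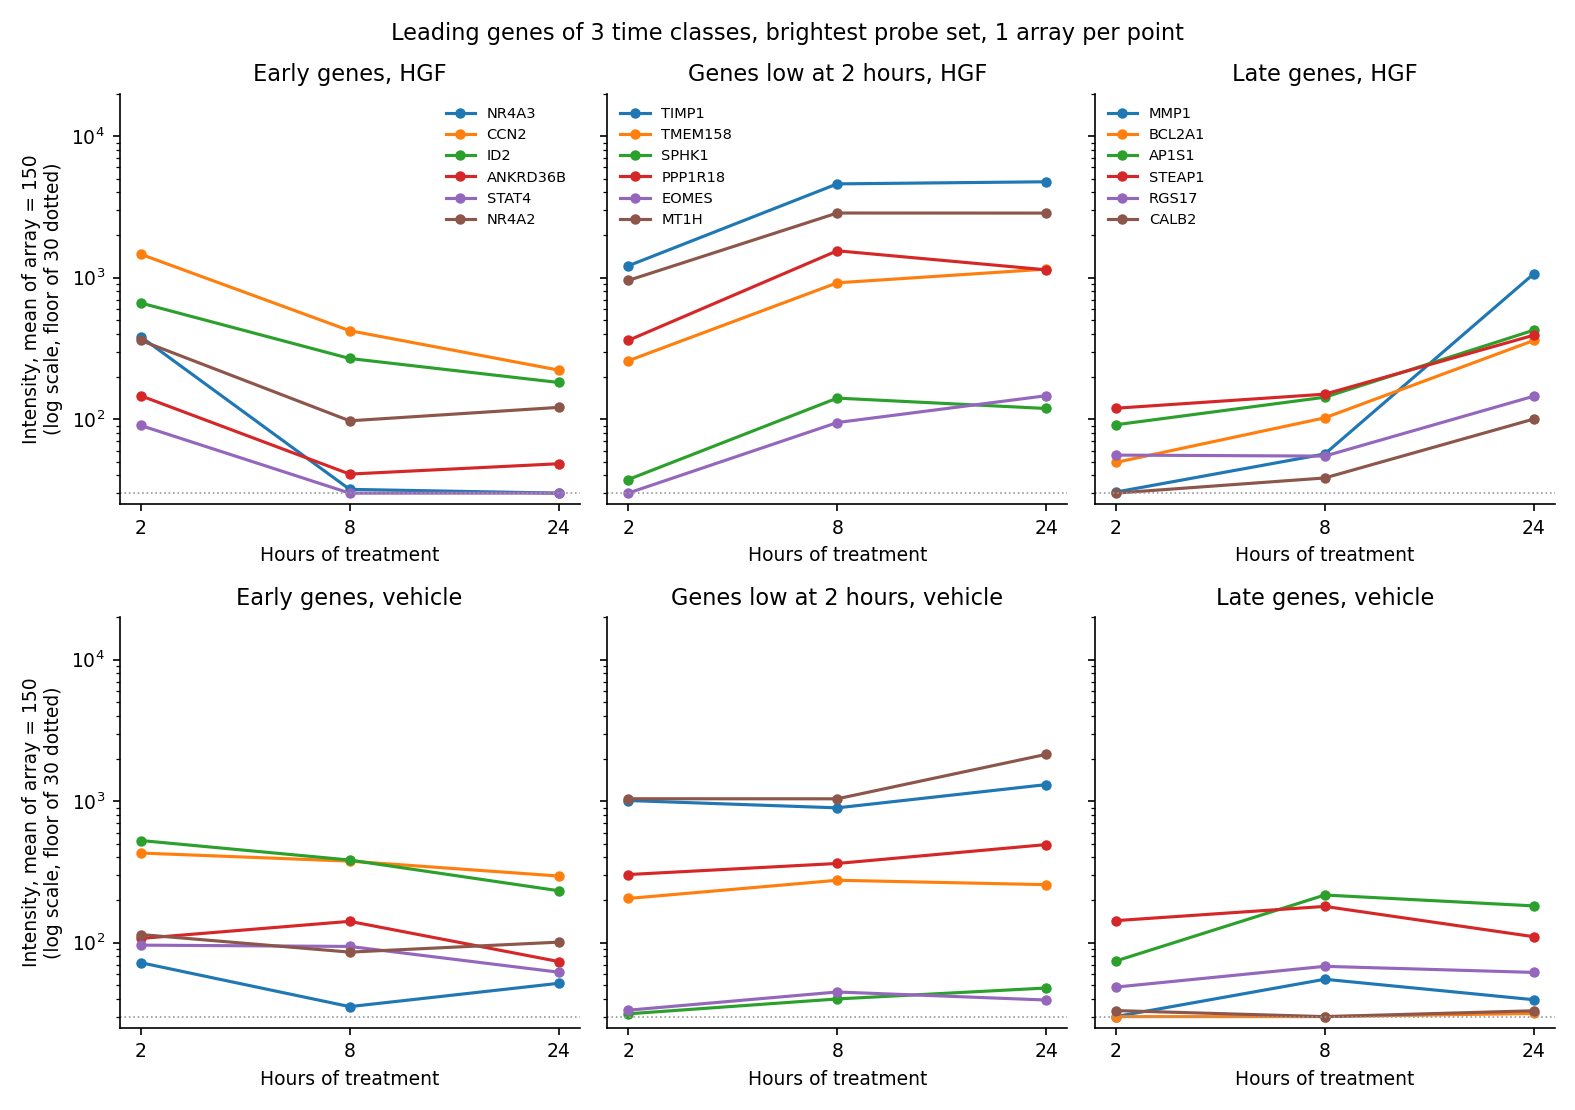
Intensity of the brightest probe set (y axis, log scale, arrays scaled to a mean of 150, floor of 30 dotted) at 2, 8 and 24 hours (x axis) for the 6 leading genes of 3 time classes, with HGF above and vehicle below, 1 array per point. NR4A3 is at 382.9 at 2 hours of HGF and at the floor at 24 hours, TIMP1 is at 1210.7 at 2 hours and at 4595.9 and 4756.1 afterwards, and MMP1 is at 56.7 at 8 hours and 1065.2 at 24 hours.

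The early class as a whole was mixed in its relation to the vehicle arrays. Its median ratios were -0.94 at 8 over 2 and -0.75 at 24 over 2 hours with HGF. With vehicle they were 0.08 and -0.53, so that these genes were lower at 24 than at 2 hours without HGF too. Over all genes compared the vehicle median at 24 over 2 hours was -0.07. In the ratio of HGF over vehicle at 2 hours, 17 of the 176 early genes were called higher (0.769% of all genes compared) and 0 lower. These 17 were ATF3, BHLHE40, CCL20, CCN2, CCNT1, EGR1, EGR3, EGR4, F3, HAS2, KLF10, MCL1, NR4A1, NR4A2, NR4A3, PIP5K1A and SOWAHC. At 8 hours 118 of the 176 were called lower than vehicle (14.6% of all genes compared) and 3 higher (4.93%). At 24 hours 11 were lower (1.02%) and 2, EGR1 and MCL1, higher (1.91%). The counts of higher genes at these times, 1.7% and 1.14% of the class, are not above the background. These ratios share arrays with the rule for the class, so the counts describe the levels and carry no support. STAT4, a transducer of cytokine signals, is an example of the larger group. It had 90.3, 20.8 and 28.3 with HGF, the last 2 under the floor, against 96.0, 94.0 and 61.8 with vehicle. MALAT1, a nuclear long non-coding RNA, had 1826.7, 738.2 and 1155.1 with HGF against 1239.9, 1746.7 and 1406.1 with vehicle. Of the 176, 91 were early under quantile normalization as well, and 20 were early both there and after the vehicle ratio was subtracted. Those 20 include NR4A2, NR4A3, CCN2, ID2, ATF3, EGR4, HAS2 and CCL20, and also genes of RNA processing such as TAF15 and PNISR.

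Genes low at 2 hours were by the rule higher at both 8 and 24 hours of HGF, whatever their course with vehicle. TIMP1, an inhibitor of matrix metalloproteinases, had 1210.7, 4595.9 and 4756.1 at 2, 8 and 24 hours of HGF, against 1010.0, 896.2 and 1308.4 with vehicle. Its ratios were 1.92 at 8 over 2 and 1.97 at 24 over 2 hours. TMEM158, a membrane protein known as a target of RAS signalling, had 258.3, 918.7 and 1148.7 with HGF and 205.1, 275.9 and 256.8 with vehicle. HMGA1, an architectural chromatin protein, had 916.9, 2857.5 and 2846.2 with HGF and 813.9, 997.3 and 1202.0 with vehicle. At 2 hours all these were near the vehicle array, and at 8 and 24 hours above all 3 vehicle arrays.

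PLAUR, ITGA5, SDC1 and AXL, which lie on the cell surface, were other genes low at 2 hours. PLAUR, the receptor of urokinase, was already above vehicle at 2 hours, with 1285.6, 3059.7 and 2340.2 for HGF and 581.4, 684.1 and 786.8 for vehicle. ITGA5, which pairs with integrin beta1 to bind fibronectin, had 143.6, 335.4 and 429.0 with HGF and 142.1, 131.1 and 171.1 with vehicle. SDC1, a cell surface proteoglycan, had 1039.9, 2212.7 and 2125.0 with HGF and 859.5, 987.9 and 969.8 with vehicle. The kinase receptor AXL had 581.2, 1635.2 and 1671.8 with HGF against 716.2, 548.3 and 988.9 with vehicle. In each of these 4 the HGF arrays of 8 and 24 hours were above all vehicle arrays. The rule for the class takes genes that are high on those HGF arrays, so this describes the levels and carries no support. How many of all genes compared do the same was not counted. Intracellular members included SPHK1, which makes sphingosine 1-phosphate, with 37.4, 140.8 and 118.9 for HGF and 31.4, 40.0 and 47.8 for vehicle. EOMES, a T-box factor known from embryos and lymphocytes, had 27.7, under the floor, 94.6 and 146.4 with HGF and 33.3, 44.8 and 39.3 with vehicle. MT1H, a metallothionein, had 954.6, 2860.7 and 2857.2 with HGF, but also 2141.4 on the vehicle array of 24 hours against 1039.3 and 1038.1 on those of 2 and 8 hours. Metallothionein genes are close copies of each other and their probe sets may not tell them apart.

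Of the 90 genes low at 2 hours 89 were called again under quantile normalization, among 131, and 37 were also found after the vehicle ratio was subtracted. That normalization raised the median ratios over 2 hours. It kept 397 of all 399 higher calls at 8 over 2 hours and 161 of 162 at 24 over 2 hours. The 89 therefore carry no support for the class. The median vehicle ratios of all 90 were 0.07 at 8 over 2 and 0.27 at 24 over 2 hours. In the ratios of HGF over vehicle 64 of the 90 were called higher at 8 hours (4.93% of all genes compared) and 46 at 24 hours (1.91%), and at 2 hours 2, PLAUR and STC1, were (0.769%). As above, these ratios share arrays with the rule.

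Promoters of this group are shown for a site of AP-1, the dimer of FOS and JUN proteins whose genes belong to the immediate early class. The letters TGACTCA, on either strand, were found in 7 of the 65 genes with a promoter in the table, from 250 bases before to 50 after the start. Since 72.2% of the 90 genes have a promoter there, fewer than 80%, the check over the group is void and its share is not set against the 2.8% of all genes compared or the 4.9% of all promoters in the table. The following 5 of those 7 were chosen after their values were seen. They are RefSeq sequences of GRCh38.p14 with the site in capitals, for SPHK1 (chr17:76383145-76383204, plus strand), ITGA5 (chr12:54419266-54419325, minus strand), PLAUR (chr19:43670323-43670382, minus strand), S100A2 (chr1:153565864-153565923, minus strand) and ISG20 (chr15:88638957-88639016, plus strand).
SPHK1: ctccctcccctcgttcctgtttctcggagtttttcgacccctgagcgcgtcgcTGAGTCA
ITGA5: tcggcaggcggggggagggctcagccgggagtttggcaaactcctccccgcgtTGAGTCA
PLAUR: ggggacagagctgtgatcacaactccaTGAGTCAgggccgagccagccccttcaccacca
S100A2: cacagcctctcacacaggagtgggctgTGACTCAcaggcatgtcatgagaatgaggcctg
ISG20: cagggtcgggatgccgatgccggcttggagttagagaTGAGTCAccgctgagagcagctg
The site began 6 bases before the start in SPHK1 and ITGA5, 22 in ISG20, 52 in S100A2 and 186 in PLAUR. S100A2, a calcium-binding protein of epithelial cells, had 336.8, 758.6 and 824.2 with HGF against 269.2, 245.5 and 276.2 with vehicle. A match describes the letters and is no evidence of binding.

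Among the leading middle genes, highest at 8 hours, were ZYX, SAC3D1 and VEGFB. ZYX, a focal adhesion protein that marks actin fibres under tension, had 333.4, 736.5 and 331.4 at 2, 8 and 24 hours of HGF, against 293.0, 253.1 and 284.5 with vehicle. Its ratios of 1.12 at 8 over 2 and -1.07 at 24 over 8 hours mirrored each other. SAC3D1, a protein of the centrosome, had 431.4, 1267.5 and 533.3 with HGF and 554.7, 468.2 and 645.8 with vehicle. VEGFB, a growth factor of the VEGF family, had 31.3, 70.4 and 28.7 with HGF and 25.1, 30.8 and 54.8 with vehicle, close to the floor throughout. CALR, a chaperone of the endoplasmic reticulum, had 383.0, 775.6 and 539.8 with HGF and 459.2, 389.5 and 666.0 with vehicle. MUC1, an epithelial mucin, had 475.4, 556.3 and 210.2 with HGF and 498.2, 358.2 and 653.8 with vehicle, so that it was both a middle gene and low at 24 hours. Of the 67 middle genes, 64 were among the 108 middle genes under quantile normalization, but 0 reached 3-fold in a probe set in both ratios.

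Late genes were led by MMP1, the interstitial collagenase. It had 30.5, 56.7 and 1065.2 at 2, 8 and 24 hours of HGF, against 26.3, 55.1 and 39.5 with vehicle. At 8 hours the 2 arrays were close together, and at 24 hours the HGF array stood far above the other 5, with ratios of 5.13 over 2 hours and 4.23 over 8 hours. BCL2A1, a survival protein of the BCL2 family and a target of NF-kB, had 49.4, 102.1 and 359.8 with HGF, against 29.5, 23.1 and 31.6 with vehicle, at the floor or just above it. It was higher at each later time, as was STC1, a secreted glycoprotein known from calcium and phosphate balance. STC1 had 231.6, 344.7 and 920.8 with HGF and 67.8, 59.9 and 36.2 with vehicle, so that it belonged to the late genes although it was above vehicle already at 2 hours.

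Of the 16 members above the floor in the list of integrins, laminins and matrix, 2, ITGA2 and ITGA6, were late (0.324% of all genes compared). ITGA2 (CD49b), a collagen receptor with integrin beta1, had 109.1, 280.8 and 607.5 with HGF and 83.0, 180.2 and 107.1 with vehicle. Its vehicle ratios at 8 over 2 hours, 0.96, and at 24 over 8 hours, -1.03, were called as well, so that a higher level at 8 than at 2 hours was present without HGF too, and the arrays stood furthest apart at 24 hours. ITGA6 (CD49f), a laminin receptor subunit, had 188.0, 188.9 and 596.0 with HGF and 163.1, 228.6 and 141.2 with vehicle. RGS2, an inhibitor of G protein signalling, had 549.9, 459.8 and 1289.1 with HGF and 298.9, 286.8 and 340.8 with vehicle. STEAP1, a membrane protein of the STEAP family, had 119.4, 150.1 and 391.9 with HGF and 143.0, 180.3 and 110.1 with vehicle. LTBP2, a matrix protein that associates with microfibrils, had 32.7, 39.4 and 111.9 with HGF and 40.4, 37.8 and 41.0 with vehicle. AP1S1, an adaptor subunit of clathrin vesicles, had 91.2, 142.8 and 425.4 with HGF and 74.1, 217.0 and 181.8 with vehicle, where its ratio at 8 over 2 hours, 1.70, exceeded the 0.76 with HGF.

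Of the 35 late genes 26 were late under both scalings and after the vehicle ratio was subtracted. The median ratios of all 35 were 1.15 at 24 over 2 hours and 1.04 at 24 over 8 hours, against 0.00 and -0.16 with vehicle for the same genes. At 24 hours 29 of the 35 were called higher than vehicle (1.91% of all genes compared), and of these 23 were called neither at 2 nor at 8 hours. This ratio uses the same HGF array of 24 hours as the rule for the class, so the count describes the levels and carries no support. SOX4 (0.53) and SLC4A7 (0.57) had the smallest ratios inside the class, NTSR1 at a bound of 1.00 and STEAP2 at 0.99 were just outside. Of the 162 genes higher at 24 over 2 hours, ISG20, ITGA2, BCL2A1, STC1, AP1S1, TMCC3 and MREG were late and low at 2 hours at once, a stepwise course. ISG20, an exonuclease induced by interferon, had 133.3, 275.9 and 605.6 with HGF and 97.4, 91.9 and 138.7 with vehicle.

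**Figure D2:**
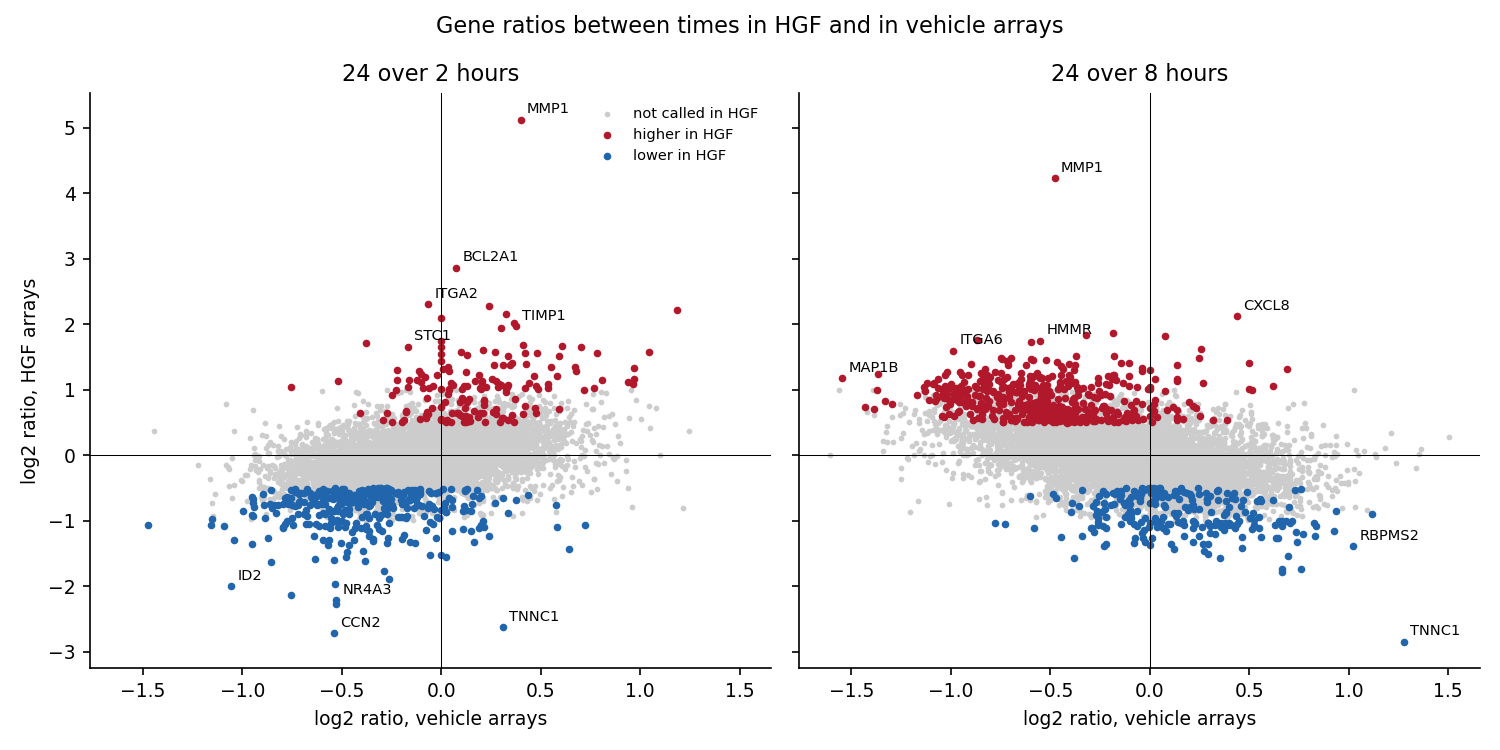
Gene log2 ratio with HGF (y axis) against that with vehicle (x axis) for 24 over 2 hours (left) and 24 over 8 hours (right), 1 point per gene, red and blue where the gene was called higher or lower with HGF. MMP1 stands highest in both panels at 5.13 and 4.23, CCN2 at -2.72 and TNNC1 at -2.63 lowest on the left, and genes called higher at 24 over 8 hours with HGF lie mostly left of 0, with a median vehicle ratio of -0.55.

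Genes low at 8 hours, which dipped and came back, were the most numerous of the 6 classes in the scaled arrays. HMMR, a mitotic spindle protein, had 817.3, 200.4 and 817.9 at 2, 8 and 24 hours of HGF, against 1013.9, 1055.1 and 751.7 with vehicle. CXCL8, a neutrophil chemokine, had 1211.0, 468.2 and 1708.1 with HGF and 262.0, 194.8 and 304.1 with vehicle, and so stayed above all vehicle arrays at each time. The receptor MET itself was low at 8 hours, with 1031.9, 579.3 and 1519.4 for HGF and 1419.6, 1529.1 and 1148.4 for vehicle. ITGAV, a subunit of vitronectin receptors, had 499.9, 186.4 and 427.3 with HGF and 508.7, 706.9 and 429.1 with vehicle. Of the 269 genes 150 were called again under quantile normalization, among 153. The median vehicle ratio of all 269 at 24 over 8 hours was -0.60, opposite to 0.81 with HGF.

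The median gene length was 51.6 kb for genes low at 8 hours, 14.8 kb for middle genes, 46.0 kb for early genes and 47.1 kb for late genes, against 29.6 kb for all genes compared. At 8 over 2 hours of HGF 3.38% of genes in the shortest group by length and 13.8% in the longest were called lower, and 5.9% and 1.52% higher, where genes were split into 4 groups of equal size by length. At 24 over 2 hours of HGF, a pair without the array of 8 hours, 2.6% of the shortest and 3.67% of the longest group were lower. In vehicle arrays the pattern appeared at 24 over 8 hours, with 1.45% of the shortest and 9.94% of the longest group lower, and at 8 over 2 hours 0.445% of the shortest and 0.26% of the longest group were lower. The median ratio at 8 over 2 hours of HGF was 0.18 in the shortest and -0.15 in the longest group, and 0.27 and -0.06 under quantile normalization. The HGF array of 8 hours and the vehicle array of 24 hours were thus those in which long genes were low. The part of gene length in the early, middle and low at 8 hours classes was not tested. Promoter GC content had medians of 69.2% in middle genes and 64.0% in genes low at 8 hours, against 65.7% over all genes compared, and the letters TTTGAA, on either strand, known as the cell cycle homology region, lay in 19.2% of 229 promoters of genes low at 8 hours and in 9.2% of all 8913.

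Among the 43 genes low at 24 hours were TNNC1, CDH1, KRT80, IL11, TNFSF9 and NAB2. TNNC1, the calcium-binding subunit of troponin, had 425.8, 496.1 and 68.9 at 2, 8 and 24 hours of HGF, against 448.8, 229.7 and 556.6 with vehicle. CDH1 (E-cadherin), the adhesion molecule of adherens junctions, had 743.4, 669.0 and 270.3 with HGF and 655.6, 718.0 and 591.2 with vehicle, where its ratio at 24 over 2 hours was at most -1.16 with HGF and -0.37 with vehicle. KRT80, an epithelial keratin, had 172.2, 169.0 and 70.7 with HGF and 215.6, 197.7 and 187.7 with vehicle. IL11, a cytokine of the IL-6 family, was above vehicle early and closer to it later, with 264.8, 272.1 and 103.5 for HGF and 38.1, 26.0 and 60.5 for vehicle. TNFSF9, a ligand of the TNF family, had 127.8, 73.9 and 34.4 with HGF and 68.6, 55.7 and 57.1 with vehicle. NAB2, a corepressor of EGR proteins, had 216.5, 220.8 and 117.9 with HGF and 92.6, 101.0 and 98.4 with vehicle. In TNNC1, CDH1 and KRT80 the HGF array of 24 hours was below all 5 other arrays, whereas NAB2 was at 24 hours just above the vehicle arrays.

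By function, the list of matrix proteolysis had 11 members above the floor and, of the lists with at least 5 such members, the highest median at 24 over 2 hours, 0.67, with MMP1, PLAUR and TIMP1 called higher (1.5% of all genes compared) and 0 lower (3.15%), against a vehicle median of 0.23. At 8 over 2 hours MMP14, PLAUR and TIMP1 were higher (3.7%) and ADAM17 lower (8.45%), and the median was 0.66. PLAU (urokinase), with 2069.1, 2745.2 and 3407.6 for HGF and 1264.2, 1449.1 and 1832.0 for vehicle, was not called. MMP9 had 28.6, 52.6 and 55.2 with HGF and 25.5, 31.5 and 33.1 with vehicle, near the floor. Among 16 members of the list of integrins, laminins and matrix, ITGA2, ITGA5, ITGA6 and SDC1 were called higher at 24 over 2 hours (1.5%) and 0 lower (3.15%), with a median of 0.27 against -0.01 with vehicle.

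Among 17 members of epithelial junctions, CDH1, CLDN1, CGN and DSG2 were called lower at 24 over 2 hours (3.15% of all genes compared) and 0 higher (1.5%). The median was -0.19 with HGF and -0.24 with vehicle. Under quantile normalization 2 were called, and DSG2 turned to 0.02 with its brightest probe set. CLDN1 had 1406.8, 741.2 and 1081.9 with HGF against 1403.7, 1439.9 and 1335.5 with vehicle. Of 18 members of the list of actin cytoskeleton and SRF targets 1, ZYX, was a middle gene and 10 were highest at 8 hours of HGF, as were 4142 of all 10791 genes. At 8 over 2 hours 2 were called higher (3.7% of all genes compared) and 1 lower (8.45%). At 24 over 8 hours ACTN4, TAGLN, MYL9 and ZYX were lower (2.21%) and 0 higher (4.24%), with a median of -0.45 against 0.03 with vehicle. MYL9, a myosin light chain, had 422.3, 803.7 and 304.3 with HGF and 493.0, 361.3 and 547.5 with vehicle. Under quantile normalization ACTN4 was not called.

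Among 28 mitosis genes 6 were lower at 8 over 2 hours (8.45% of all genes compared), CDK1, CENPF, KIF11, NUSAP1, HMMR and ASPM, and 6 higher at 24 over 8 hours (4.24%), while 0 were called at 24 over 2 hours. The medians were -0.35, 0.25 and -0.03, in that order, against -0.11, -0.14 and -0.18 with vehicle. CDK1, the kinase of mitotic entry, had 1256.1, 705.7 and 1347.9 with HGF and 1597.5, 1708.7 and 1285.1 with vehicle. Their dip at 8 hours lay on the array in which long genes were low, and the part of length in it was not tested. CDT1 and CCNE1, which act at the start of S phase, were called higher at 8 over 2 hours (3.7% of all genes compared). CDT1, which loads the replicative helicase, had 211.8, 505.6 and 328.8 with HGF and 336.6, 259.7 and 280.9 with vehicle, and CCNE1 (cyclin E1) had 127.8, 313.6 and 252.1 with HGF and 104.0, 151.6 and 124.8 with vehicle. Of 27 members of DNA replication, 2 were called higher at 8 over 2 hours (3.7%) and 1, RFC3, lower (8.45%). The median was -0.03. At 24 over 2 hours MCM4 was lower (3.15%). CCNE2 (cyclin E2) had 156.5, 96.9 and 183.4 with HGF and 144.8, 209.0 and 111.4 with vehicle. It was thus lowest at 8 hours of HGF, though not called.

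Of 20 members of sterol and fatty acid synthesis above the floor 6 were called lower at 24 over 2 hours (3.15% of all genes compared), HMGCS1, SQLE, LSS, MVD, INSIG1 and SCD, and 0 higher (1.5%), with a median of -0.45 against -0.07 with vehicle. HMGCS1, which starts the mevalonate pathway, had 395.9, 180.3 and 160.5 with HGF and 250.8, 209.0 and 287.7 with vehicle, and INSIG1, a sterol sensor, 446.9, 181.7 and 238.6 with HGF and 285.1, 206.9 and 247.5 with vehicle, so both were early genes. MVD, of the same pathway, had 65.6, 89.2 and 22.4 with HGF and 68.3, 43.2 and 55.0 with vehicle and was low at 24 hours. Under quantile normalization 5 were lower and 0 higher.

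The chemokine and NF-kB list split by member. At 24 over 8 hours CXCL8, CXCL3, CXCL5 and BCL2A1 were called higher (4.24% of all genes compared) and IL11 lower (2.21%), among 17 members with a median of 0.00. CXCL5 had 1117.1, 771.1 and 1876.5 with HGF and 853.0, 978.6 and 850.4 with vehicle. CXCL3 had 68.5, 33.9 and 83.8 with HGF and was under the floor on all vehicle arrays. Lists of ribosome biogenesis (19 members, 12 of them highest at 8 hours) and of interferon response and antigen presentation (20 members, 13 highest at 8 hours) had medians of -0.07 and -0.12 at 24 over 2 hours. Of all 10791 genes 4404 were highest at 2 hours of HGF, 4142 at 8 hours and 2245 at 24 hours, ties at the floor counting for the earlier time.

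The study built a stem-like signature from these arrays, up for ITGA2 (CD49b), ITGA6 (CD49f), CD44 and SOX9 and down for CD24, so that its order in time is no independent evidence of direction. The study also reported these directions by quantitative PCR in independent experiments. For protein it used FACS, and a Western blot for SOX9. ITGA2 and ITGA6 were late, as given above. SOX9, a transcription factor of progenitor cells, had 281.9, 420.8 and 363.4 at 2, 8 and 24 hours of HGF, against 62.4, 73.9 and 52.5 with vehicle. It was thus above all vehicle arrays from 2 hours on and was not called between times, with ratios of 0.67, 0.54 and -0.13. CD44, a hyaluronan receptor, had 196.0, 276.4 and 339.2 with HGF and 161.6, 265.8 and 188.9 with vehicle. It was not called, with ratios of 0.37 at 8 over 2 and 0.38 at 24 over 2 hours, in which 6 of its 13 probe sets lie at the floor on all arrays and count as 0. With the other 7 probe sets alone the ratios were 0.69 and 0.70 and both were called higher. CD24, a surface glycoprotein, had 999.2, 526.8 and 433.7 with HGF and 1066.1, 1516.4 and 992.5 with vehicle, and was called lower at 24 over 2 hours with a ratio of -1.04. Of 12 members of the Notch pathway above the floor 0 were called between HGF arrays, and the median at 24 over 2 hours was 0.07. At that pair 1.5% of all genes compared were higher and 3.15% lower, so 0 of 12 is near the background. DLL4, a ligand, was at the floor on all arrays. The study reported higher JAG1 and DLL4 RNA with HGF by RT-PCR, which ratios between times of HGF do not address. HES1, a target of Notch, had 98.2, 104.4 and 163.3 with HGF and 53.4, 48.8 and 44.5 with vehicle, and JAG1, a ligand, had 16.4, 20.8 and 35.9 with HGF, the first 2 under the floor, and 15.4, 19.9 and 27.3 with vehicle.

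A straight line over log2 hours was fitted to all 6 arrays with limma, in which departures from the line stand in for error. Over 10002 genes above the floor on at least 3 arrays 0 had a slope with HGF at an adjusted p under 0.05 (Benjamini-Hochberg, 0%), and 268 had an unadjusted p under 0.05 (2.68%). For the difference in slope between HGF and vehicle 0 were called (0%) and 73 had an unadjusted p under 0.05 (0.73%). The fit has 2 residual degrees of freedom. CCN2 had a slope of -0.76 per doubling of time with HGF (SE 0.08, adjusted p = 1) and -0.15 with vehicle. BCL2A1 had 0.79 (SE 0.10, adjusted p = 1) with HGF and 0.02 with vehicle. These were the 2 genes with the smallest unadjusted p for the HGF slope in the limma fit, followed by genes of the same classes such as EOMES, ISG20, TMCC3 and TNFSF9. The slope of MMP1 was 1.39 (SE 0.29, adjusted p = 1). Without the HGF array of 8 hours 1 gene was called, MMP1 with a slope of 1.43 and an adjusted p of 0.0456 in limma. With 2 HGF arrays left the HGF line passes through both, so the spread in that fit comes from the vehicle arrays alone and the HGF arrays are assumed to vary like them.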

How the data were processed

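RNA of DU145 cells was hybridised to 6 Affymetrix U133plus2.0 arrays, with 3 times of HGF and the same 3 times of vehicle. The values of the 54675 probe sets that the authors deposited are linear intensities. MAS5 is named in the submitters' notes, and neither its version nor its target mean is given in the sources used here. The study's methods describe quantile normalization, an array mean of 150 and a floor of 30, which the deposited intensities do not show. The mean and the floor were therefore applied here, with quantile normalization as an alternative. Precision is limited by the single array per condition, and no p-value exists for a pair of arrays.

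Of 42898 probe sets in the platform's annotation table, 41097 had 1 gene symbol, 1801 had several and were not used, and 6 controls were left out. Gene identifiers matched RefSeq for 41043. Gene lengths and promoters came from RefSeq tables of GRCh38.p14. A total of 30 gene lists with 579 entries were described by counts and medians.

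The classes, lists, tests and the rule for named genes were chosen with earlier results of these data known. That rule took 162 genes, namely the 12 leading genes of the early, middle and late classes, the 6 leading genes of the other classes, at most 4 wide-ranging members per list, the 10 genes with the smallest p in each limma test, the stem-like signature and 10 genes called in opposite directions. The text reports a part of them. Other genes named as examples were chosen after their values were seen. The slope over log2 hours was fitted with limma 3.58.1 in R 4.3.3 (lmFit and eBayes, Benjamini-Hochberg adjustment, threshold 0.05). The steps were tested on simulated data. Python 3.11.15, numpy 2.4.6, pandas 2.3.3 and matplotlib 3.10.9 were used. Alternatives for genes low at 2, 8 and 24 hours, the class ratios against vehicle and the block by time were added after seeing the data.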

Additional observations from a re-analysis of the deposited data

Results flagged for a closer look

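Between the same 2 times, 136 genes were called in opposite directions with HGF and with vehicle, in 141 combinations of gene and pair of times. Of these combinations, 119 were higher with HGF and lower with vehicle at 24 over 8 hours, 9 were lower with HGF and higher with vehicle at that pair, and 13 were lower with HGF and higher with vehicle at 8 over 2 hours. The difference was not tested, since each ratio has 1 array a side. The 10 genes with the largest differences in log2 ratio, HGF minus vehicle, were singled out for this reason. TNNC1, the troponin subunit, had -4.12 at 24 over 8 hours, with ratios of -2.85 for HGF and 1.28 for vehicle. ITGA6, the laminin receptor subunit, had 2.59 at that pair, with 1.60 for HGF and -0.99 for vehicle, and its level of 596.0 at 24 hours of HGF was above all other arrays. MAP1B, a microtubule-associated protein, had 2.72, with 1.17 for HGF and -1.55 for vehicle, and levels of 220.4 at 8 hours and 436.7 at 24 hours of HGF against 518.0 and 255.7 with vehicle. The histone gene H2AC14 had at least 2.61, ATP13A3 2.37, UPF2 2.30, LYSMD3 at least 2.25 and METTL18 2.23, all at 24 over 8 hours. RBPMS2, a middle gene, had -2.40 at 24 over 8 hours, with levels of 45.0, 146.9 and 56.4 at 2, 8 and 24 hours of HGF against 54.4, 46.0 and 93.4 with vehicle. PIP5K1A, a lipid kinase, had -2.48 at 8 over 2 hours, with levels of 547.1, 452.6 and 484.1 for HGF against 163.6, 666.0 and 391.8 for vehicle, where the vehicle array of 2 hours was the low one. The ratios at 24 over 8 hours set the HGF array of 8 hours and the vehicle array of 24 hours, in both of which long genes were low, against the other array of their pair, and the part of this in the opposite calls was not tested.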

How the results depend on the processing

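Of 233 called ratios of the named genes, 215 kept their call under quantile normalization over 6 arrays and 18 lost it, and over all alternatives 2590 of 2950 values kept the call, 350 lost it and 10 turned. The cause was not tested where none is given. Early genes numbered 92 and middle genes 108 under quantile normalization over 6 arrays, 91 and 119 over the 3 HGF arrays, and early genes 112 with centred ratios. Without a floor, which brings in dim probe sets, the pairs 8 over 2, 24 over 2 and 24 over 8 hours had 7558, 6507 and 6594 genes and the early, middle and late classes 1992, 1319 and 1200. A floor of 60 gave 805, 286, 383, 86, 35 and 22 in that order, and 3-fold in place of 2-fold 167, 98, 48, 25, 0 and 4. Early genes numbered 73 with the brightest probe set, 107 without probe sets ending in _s_at or _x_at, where 24 over 2 hours had 326 genes, and 287 with no condition on the mean. After subtraction of the vehicle ratio 8 over 2 hours had 2235 genes, 24 over 8 hours 2810, and the early, middle and late classes 52, 376 and 177. Ratios of named genes that turned were AP1S1 at 8 over 2 hours (-0.95) and, at 24 over 2 hours, DSG2 (0.16) and SLC7A11 (0.04) after that subtraction, CCND1 (0.13) and DSG2 (0.02) at 24 over 2 hours with the brightest probe set and without _s_at or _x_at probe sets, and without a floor DUSP7 at 24 over 2 hours (-0.32) and KRT19 at 8 over 2 (-0.43) and 24 over 2 hours (-0.38).

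With limma the slope with HGF and the difference between HGF and vehicle had 268 and 73 genes at an unadjusted p under 0.05. Leaving out each array gave 0 to 1 gene for the HGF slope at an adjusted p under 0.05, the 1 without the HGF array of 8 hours being MMP1, where the vehicle arrays alone give the spread, and 0 to 0 for the difference. A variance trend, the order of the times, no filter, quantile normalization and the brightest probe set gave 0 for both. The HGF and vehicle arrays of a time as a block, a fit paired by time with 1 residual degree of freedom that was added after seeing the data, gave 0 genes for the difference and 35 at an unadjusted p under 0.05. The labels give no replicate numbers. Signal over background limits genes near the floor, whose ratios are bounds.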
